A study of Mus musculus with 8 samples.

Results

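Transcripts of 10 chemokine ligands (Ccl3, Ccl4, Ccl5, Xcl1, Ccl6, Ccl9, Cxcl2, Cxcl3, Cxcl9 and Cxcl10) were described in spleen natural killer (NK) cells of mice that carry a ChAT-eGFP reporter, a green fluorescent protein that marks cells expressing the acetylcholine-making enzyme choline acetyltransferase. They are 10 of the 20284 genes named on the array and of the 13607 that passed the filter on low signal, and all 10 passed it. They were selected on earlier results of these same arrays, and the difference between the sorted groups was among the values in view. That difference is therefore given as a description without a test. One probe measured each gene except Cxcl9, which had 2 probes, and all 11 probes were well above background on 8 of 8 arrays.

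NK cells were enriched magnetically from spleen and then sorted by the reporter into cells that showed it (ChAT_positive) and cells that did not (ChAT_negative). Each group held 4 samples, each a pool of cells from 2 to 4 mice. Age, sex, strain and treatment are not given in the sources used here, and the labels do not say whether pools shared mice, so the tests weigh differences against a sample spread that may be partly technical. RNA was measured on 8 one-colour Agilent arrays. Values are log2 of the deposited processed intensity minus the 75th percentile of the same array over non-control probes, so 0 marks that percentile. Apart from the summed levels of marker lists, the level of each probe is compared only with itself across arrays. Those sums add unlogged values over different probes, so the brightest probes weigh most in them.

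The sorted gene, Chat, averaged 3.75 ± 0.25 on the ChAT_positive and 2.65 ± 0.34 on the ChAT_negative arrays (SD, n = 4 each), a difference of 1.10 (SE 0.20, limma adjusted p = 0.020). The difference was not called without ChAT_positive replicate 3 (adjusted p = 0.062) or ChAT_negative replicate 4 (adjusted p = 0.067), and over all alternatives the adjusted p lay between 0.0028 and 0.12. All 12 listed NK cell markers were measured in both groups. In ChAT_positive cells 3 of them (Klrb1c, Klrk1 and Prf1) were lower and none was higher by limma (unadjusted p under 0.05 for 9 lower and 0 higher). Between 50.2% and 63.2% of spots on an array were well above background. All ChAT_positive arrays lay on slide 1 and all ChAT_negative arrays on slide 2, so the effect of the slide cannot be told apart from that of the reporter here. In bulk RNA, fewer cells of a type and less RNA per cell cannot be told apart either.

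Chemokines are small secreted proteins that bind G protein-coupled receptors and steer the movement of leukocytes. NK cells are known as a source of Ccl3, Ccl4, Ccl5 and Xcl1, which draw in cells with the receptors Ccr1 and Xcr1, among others. Cxcl2 and Cxcl3 act on Cxcr2, the main chemokine receptor of neutrophils, while Cxcl9 and Cxcl10 are interferon-induced ligands of Cxcr3. Ccl6 and Ccl9 are rodent ligands of Ccr1 best known from myeloid cells.

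Several of these genes are neighbours in the genome. Among protein-coding genes in the RefSeq order of the GRCm38.p6 assembly, Ccl5, Ccl9, Ccl6, Ccl3 and Ccl4 follow each other on chromosome 11. Cxcl3 lies after Pf4 and Cxcl2 after Cxcl1 on chromosome 5, where Cxcl9 and Cxcl10 flank Art3. Xcl1 lies between Dpt and Tbx19 on chromosome 1. Promoter windows from 250 bases before to 50 after the start site came from RefSeq on the same assembly and matched 8 of the 10 genes (all but Ccl4 and Ccl5). The 250 bases before the start site are shown for the 4 genes with separate groups (Cxcl3, Cxcl9, Ccl6 and Ccl9) and for Cxcl2 and Cxcl10, the relative or neighbour of the first pair, so that the letters can be set beside the values given later. They read 5′ to 3′, with matches to 3 searched motifs in capitals: GGGANNTTC for NF-kB, GAAANNGAA for the interferon-stimulated element and TGANTCA for AP-1.
Cxcl3: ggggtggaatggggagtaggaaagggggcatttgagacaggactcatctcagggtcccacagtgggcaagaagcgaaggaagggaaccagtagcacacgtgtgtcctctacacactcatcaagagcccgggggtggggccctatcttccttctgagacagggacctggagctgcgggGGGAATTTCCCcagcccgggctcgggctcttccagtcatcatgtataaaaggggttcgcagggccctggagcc
Cxcl2: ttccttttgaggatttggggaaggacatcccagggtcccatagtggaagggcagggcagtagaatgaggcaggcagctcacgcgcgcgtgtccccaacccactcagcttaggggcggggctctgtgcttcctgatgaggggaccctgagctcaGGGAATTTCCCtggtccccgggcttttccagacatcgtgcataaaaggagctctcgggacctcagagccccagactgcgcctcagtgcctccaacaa
Cxcl9: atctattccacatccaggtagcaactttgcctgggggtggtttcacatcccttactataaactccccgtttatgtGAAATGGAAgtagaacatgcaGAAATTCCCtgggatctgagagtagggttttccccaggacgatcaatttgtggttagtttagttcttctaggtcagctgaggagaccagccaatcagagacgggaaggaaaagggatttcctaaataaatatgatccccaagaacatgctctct
Cxcl10: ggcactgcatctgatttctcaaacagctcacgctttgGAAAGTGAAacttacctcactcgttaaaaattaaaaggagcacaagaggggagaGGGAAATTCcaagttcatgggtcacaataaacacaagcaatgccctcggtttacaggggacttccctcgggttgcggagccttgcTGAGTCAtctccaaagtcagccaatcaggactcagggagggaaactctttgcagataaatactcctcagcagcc
Ccl6: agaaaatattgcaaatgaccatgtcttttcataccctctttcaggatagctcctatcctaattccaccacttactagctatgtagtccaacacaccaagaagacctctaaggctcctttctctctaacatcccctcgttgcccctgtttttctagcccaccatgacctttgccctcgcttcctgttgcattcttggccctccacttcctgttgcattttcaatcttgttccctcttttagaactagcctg
Ccl9: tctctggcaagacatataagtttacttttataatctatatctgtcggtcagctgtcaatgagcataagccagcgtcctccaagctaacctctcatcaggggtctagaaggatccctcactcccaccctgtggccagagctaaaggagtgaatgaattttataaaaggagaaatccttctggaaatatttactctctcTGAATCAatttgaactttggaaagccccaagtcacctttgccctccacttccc

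These stretches lie at chr5:90785851-90786100 (plus strand) for Cxcl3, at chr5:90903649-90903898 (plus strand) for Cxcl2, at chr5:92328080-92328329 (minus strand) for Cxcl9 and at chr5:92348890-92349139 (minus strand) for Cxcl10. Those of Ccl6 and Ccl9 lie at chr11:83593088-83593337 (minus strand) and chr11:83578637-83578886 (minus strand). The NF-kB letters stood in 4 of the 8 windows (Cxcl2, Cxcl3, Cxcl9 and Cxcl10) and in 3.94% of all 32851 windows of the same length, searched on both strands. In Cxcl2 and Cxcl3 a match on each strand overlapped the other, in the capitals that start 97 and 73 bases before the start site. The interferon-stimulated letters stood in 3 of the 8 windows (Ccl3, Cxcl9 and Cxcl10) and in 8.56% of all windows. The AP-1 letters stood in 3 of the 8 (Ccl9, Cxcl9 and Cxcl10) and in 7.81% of all windows, and in Cxcl9 they lay 31 bases past the start site, outside the stretch shown. None of the 8 held the gamma-activated site TTCNNNGAA (8.30% of all windows) or the T-box letters AGGTGTG (5.84%). The Cxcl2 and Cxcl3 windows were the most alike of all pairs, with 205 identical bases over 340 alignment columns (60.3%), against 45.8% to 53.4% for the other pairs. A match describes letters in a window and is not evidence of a bound factor.

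**Figure D1:**
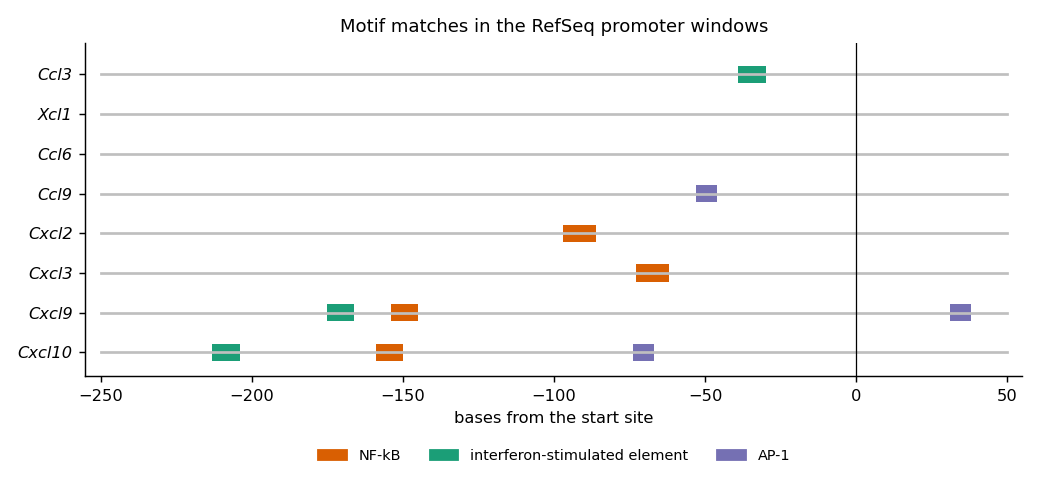
Matches to the 3 motifs in the promoter windows of 8 ligands, drawn by distance in bases from the start site (vertical line). NF-kB matches appear in 4 windows, and the windows of Ccl6 and Xcl1 hold no match.

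Across the 10 ligands, Ccl6 and Ccl9 were lower and Cxcl3 and Cxcl9 higher in ChAT_positive cells with no overlap between the groups, while Ccl3, Ccl4, Ccl5, Xcl1, Cxcl2 and Cxcl10 overlapped. By group means, 4 ligands were higher and 6 lower, with a median log2 difference of -0.31 against 0.025 over the 13607 genes tested. Among all genes, 5.95% were called at a limma adjusted p under 0.05 (2.81% higher and 3.15% lower) and 15.5% did not overlap. Of the ligands, 2 were called higher and 2 lower, and 4 did not overlap. Since these genes were chosen from this contrast, nothing is read from those counts. The calls over all genes were 382 higher and 428 lower, and 212 higher and 119 lower when arrays were centred on their medians, which moved the median of all genes by 0.22. The number higher was 170, 100 and 219 without replicate 1, 3 or 4 of ChAT_positive, and 185, 149 and 81 without ChAT_negative replicate 2, 3 or 4. The number lower was 219 and 125 without ChAT_positive replicate 1 or 3, and 233, 199 and 78 without ChAT_negative replicate 2, 3 or 4.

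**Figure D2:**
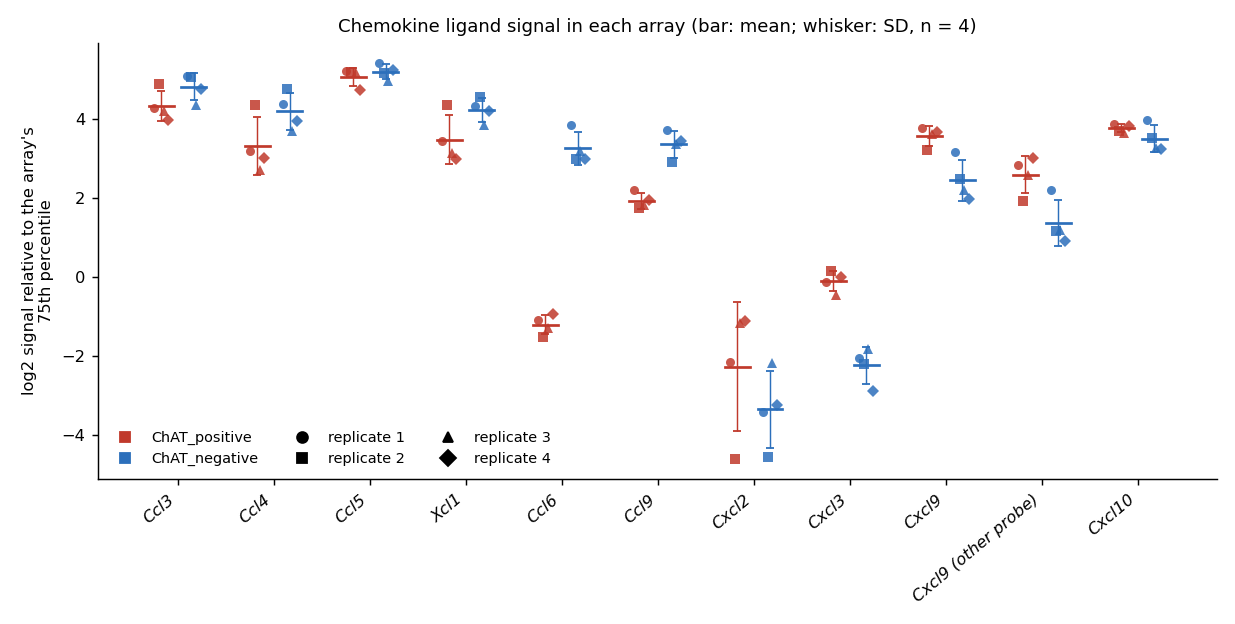
Log2 signal of each ligand probe relative to the array's 75th percentile, for 4 ChAT_positive (red) and 4 ChAT_negative (blue) arrays, with marker shape giving the replicate, bars the group mean and whiskers the SD. Ccl6, Ccl9, Cxcl3 and the brighter Cxcl9 probe show separate groups, and replicate 2 lies lowest in both groups for Cxcl2.

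Ccl6, a rodent Ccr1 ligand, differed most among the 10. The ChAT_positive arrays measured -1.10, -1.51, -1.29 and -0.94 and the ChAT_negative arrays 3.85, 2.98, 3.17 and 2.99. Every ChAT_positive array lay below every ChAT_negative array, with a gap of 3.91 between the nearest ones. The means were -1.21 ± 0.25 and 3.25 ± 0.41 (SD, n = 4 each), so Ccl6 was lower by 4.46 (SE 0.22) on the log2 scale, or 21.9-fold. In unscaled intensity the ChAT_positive arrays spanned 617 to 1377 and the ChAT_negative arrays 16440 to 30606. Leaving out any single array kept the difference between -4.55 and -4.26.

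Ccl9, its neighbour and also a Ccr1 ligand, was lower by less. Its ChAT_positive values were 2.19, 1.75, 1.81 and 1.93, and its ChAT_negative values 3.71, 2.90, 3.35 and 3.44. The groups did not overlap, with a gap of 0.71, and replicate 2 was the lowest array in each. The means of 1.92 ± 0.20 and 3.35 ± 0.33 (SD, n = 4 each) gave a difference of -1.43 (SE 0.18), or 2.69-fold lower. The other ligand genes beside them on chromosome 11 did not show separate groups.

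Some markers listed for basophils and mast cells, and fewer of those listed for neutrophils, were lower in ChAT_positive cells beside Ccl6 and Ccl9. The mast cell gene Kit (-0.38, limma adjusted p = 0.19) and the neutrophil gene S100a8 (-2.03, limma adjusted p = 0.21) were among those not called. Of 9 tested basophil and mast cell markers, 5 were lower and none higher in ChAT_positive cells by limma (unadjusted p under 0.05 for 8 lower and 0 higher), with a median log2 difference of -2.44. Mcpt8, a basophil protease, was lower by 4.04, and Cd200r3 and Ms4a2 were not well above background on any ChAT_positive array. Cd200r3, among the 5 called, thus passed the filter on low signal only through ChAT_negative arrays. The summed level of that list, in units of the array's 75th percentile, ranged from 6.11 to 8.90 in ChAT_positive and from 14.1 to 48.6 in ChAT_negative arrays. The lowest ChAT_negative sum, 14.1, was in replicate 2, where Ccl6 was also the lowest of its group at 2.98, beside 3.17 and 2.99 in replicates 3 and 4. Across the 8 arrays, which share scaling within each array, deviations of Ccl6 from the group means had a Pearson r of 0.66 with those of this sum and 0.90 with those of the monocyte and macrophage sum. For Ccl9 the values were 0.94 and 0.71. The sum of the platelet markers, a list described below, gave 0.90 for Ccl6 and 0.78 for Ccl9. The neutrophil sum gave 0.39 for Ccl6 and 0.37 for Ccl9, and the T cell sum -0.78 and -0.74. All these values are given as a description. Of 11 neutrophil markers tested, 3 were lower and none higher by limma (unadjusted p under 0.05 for 7 lower and 0 higher), with summed levels of 37.6 to 70.1 against 57.9 to 102. Retnlg, among the 3, was not well above background on any ChAT_positive array and also passed the filter only through ChAT_negative arrays. Nothing is read from the calls of Cd200r3 and Retnlg. Of 11 monocyte and macrophage markers tested, none was called in either direction (unadjusted p under 0.05 for 3 higher and 1 lower), with sums of 5.93 to 8.73 against 6.76 to 10.0. C1qc was not above background on any array. Without ChAT_negative replicate 4 the Mcpt8 call was lost (adjusted p = 0.058, and 0.00016 to 0.10 over the alternatives). The part of these cells in the values of Ccl6 and Ccl9 was not tested.

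**Figure D3:**
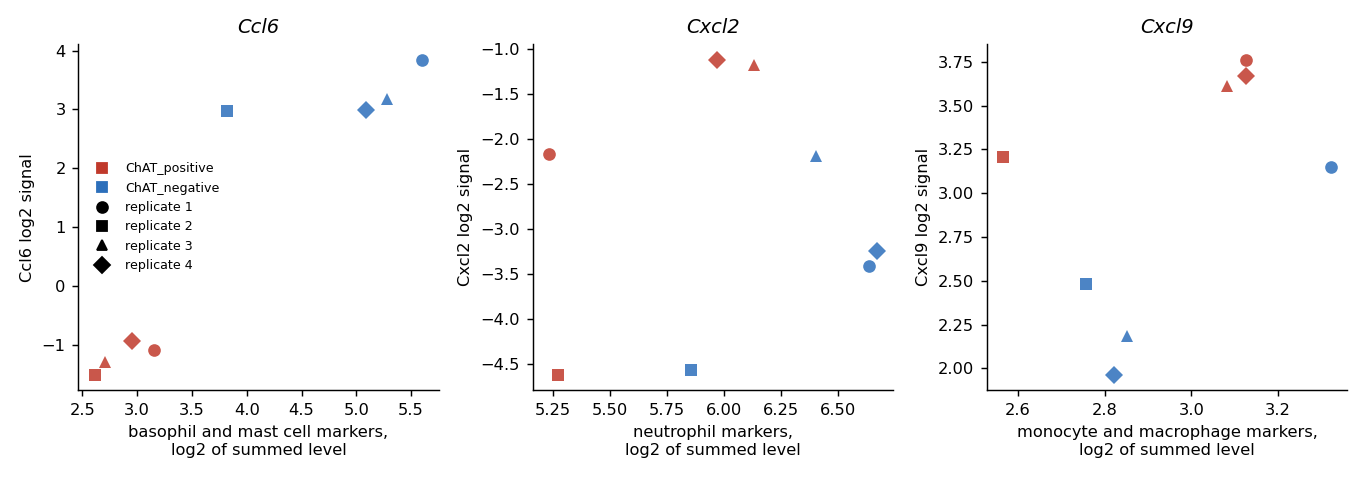
Log2 signal of Ccl6, Cxcl2 and Cxcl9 on each array (vertical axes) against the log2 summed level of basophil and mast cell, neutrophil, and monocyte and macrophage markers (horizontal axes), by group (colour) and replicate (shape). Among ChAT_negative arrays, replicate 2 has the lowest basophil and mast cell sum (14.1 before the log) and the lowest Ccl6 value (2.98).

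Cxcl3, a Cxcr2 ligand that attracts neutrophils, was the ligand with the largest difference in the other direction. Its ChAT_positive values were -0.13, 0.14, -0.46 and 0.0082, and its ChAT_negative values -2.06, -2.21, -1.82 and -2.88. All ChAT_positive arrays were higher, with a gap of 1.37. The means of -0.11 ± 0.26 and -2.24 ± 0.46 (SD, n = 4 each) differed by 2.13 (SE 0.23), or 4.39-fold. Single arrays left out gave 1.92 to 2.27.

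Cxcl2, the closest relative of Cxcl3 by promoter window and a ligand of the same receptor, did not separate the groups. It measured -2.16, -4.62, -1.18 and -1.12 in ChAT_positive and -3.41, -4.57, -2.19 and -3.24 in ChAT_negative arrays. Replicate 2 was far below the rest of each group, at nearly the same value in both. The means of -2.27 ± 1.64 and -3.35 ± 0.97 (SD, n = 4 each) differed by 1.08 (SE 0.78), and unscaled intensities reached down to 71.7 and 88.1. Without ChAT_positive replicate 2 the difference was 1.86 and the groups no longer overlapped. Without ChAT_negative replicate 2 it was 0.68. These were the highest and lowest differences with single arrays left out. Probe sequences were not used here, so shared signal between Cxcl1, Cxcl2 and Cxcl3 was not checked.

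Cxcl9, an interferon gamma-induced Cxcr3 ligand, was higher in ChAT_positive cells by both probes. The brighter probe measured 3.76, 3.21, 3.61 and 3.67 in ChAT_positive and 3.15, 2.48, 2.18 and 1.96 in ChAT_negative arrays. These groups were separated by only 0.055, between ChAT_positive replicate 2 and ChAT_negative replicate 1. Its means of 3.56 ± 0.25 and 2.44 ± 0.52 (SD, n = 4 each) differed by 1.12 (SE 0.25), or 2.17-fold. The other probe measured 2.82, 1.92, 2.58 and 3.01 against 2.21, 1.15, 1.19 and 0.91, and its groups overlapped, with a difference of 1.22. Cxcl9 was no longer among the genes called without replicate 1, 3 or 4 of ChAT_positive or replicate 2, 3 or 4 of ChAT_negative. Calls of the ligands are a description of the fits only, since these genes were chosen from this contrast. Over the single arrays left out its difference was 0.96 to 1.35.

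Cxcl10, the other Cxcr3 ligand measured and a neighbour of Cxcl9, overlapped between the groups. It measured 3.87, 3.68, 3.65 and 3.83 in ChAT_positive and 3.96, 3.52, 3.25 and 3.24 in ChAT_negative arrays. ChAT_negative replicate 1 was the highest of all 8, and the other 3 ChAT_negative arrays lay below every ChAT_positive array. The means of 3.76 ± 0.11 and 3.49 ± 0.34 (SD, n = 4 each) differed by 0.26 (SE 0.17).

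Some markers of other lymphoid cells were higher in ChAT_positive cells, as Cxcl3 and Cxcl9 were. Of 12 markers of innate-like and type 17 lymphoid cells, 7 were higher and none lower by limma (unadjusted p under 0.05 for 9 higher and 0 lower), with summed levels of 20.6 to 31.7 in ChAT_positive and 13.6 to 15.2 in ChAT_negative arrays. The cytokine gene Il17f was higher by 3.74. Of 10 B cell markers, 5 were higher and none lower by limma (unadjusted p under 0.05 for 6 higher and 0 lower), with sums of 115 to 150 against 76.8 to 102. Of 9 T cell markers tested, none was called (unadjusted p under 0.05 for 0 of them). Of 8 dendritic cell markers tested, 2 (Clec9a and Itgax) were lower and none higher by limma (unadjusted p under 0.05 for 1 higher and 2 lower), and 2 of 4 red cell markers tested were lower. Clec9a was not well above background on any ChAT_positive array. It passed the filter only through ChAT_negative arrays, so nothing is read from its call. Deviations of Cxcl9 from the group means had a Pearson r of -0.30 with those of the innate-like and type 17 sum. For Cxcl9 the B cell sum gave 0.17 and the monocyte and macrophage sum 0.84. For Cxcl3 these 3 sums gave 0.28, -0.52 and -0.039, all as a description. The part of any of these cells in the values of Cxcl3 and Cxcl9 was not tested.

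The chemokines best known from NK cells overlapped between the groups, with lower means in ChAT_positive cells. Ccl3, a Ccr1 ligand, measured 4.27, 4.87, 4.19 and 3.98 in ChAT_positive and 5.09, 5.06, 4.35 and 4.76 in ChAT_negative arrays. Only ChAT_positive replicate 2 exceeded any ChAT_negative array, in this case replicates 3 and 4. The means of 4.33 ± 0.38 and 4.81 ± 0.35 (SD, n = 4 each) gave -0.49 (SE 0.23).

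Ccl4, a close relative of Ccl3 encoded next to it, measured 3.19, 4.36, 2.70 and 2.99 in ChAT_positive and 4.36, 4.76, 3.69 and 3.93 in ChAT_negative arrays. ChAT_positive replicate 2 again lay inside the ChAT_negative range and the other 3 below it. The means of 3.31 ± 0.72 and 4.19 ± 0.47 (SD, n = 4 each) gave -0.88 (SE 0.37).

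Xcl1, the ligand of Xcr1 on cross-presenting dendritic cells, measured 3.43, 4.35, 3.13 and 2.98 in ChAT_positive and 4.32, 4.55, 3.83 and 4.21 in ChAT_negative arrays. As for Ccl4, replicate 2 and then replicate 1 were the highest of each group. The means of 3.47 ± 0.62 and 4.23 ± 0.30 (SD, n = 4 each) gave -0.75 (SE 0.30). Without ChAT_positive replicate 2 the groups of Ccl3, Ccl4, Xcl1 and Cxcl2 no longer overlapped, so that 8 of the 10 ligands showed separate groups. Without both arrays numbered 2, an alternative chosen after the values were seen, the number was again 8. Groups of fewer arrays separate more readily for any gene. The share over all genes is not given for these settings, so nothing is read from these numbers.

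Ccl5, a ligand of Ccr1 and Ccr3, measured 5.20, 5.18, 5.15 and 4.72 in ChAT_positive and 5.42, 5.17, 4.95 and 5.23 in ChAT_negative arrays. The ranges lay largely over each other. The means of 5.06 ± 0.23 and 5.19 ± 0.20 (SD, n = 4 each) gave -0.13 (SE 0.16), and the sign turned to 0.085 when arrays were centred on their medians.

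Within the groups, some ligands moved together from array to array. In ChAT_positive arrays replicate 2 was the highest for Ccl3, Ccl4, Xcl1 and Cxcl3 and the lowest for Cxcl2, Ccl6, Ccl9 and Cxcl9. In ChAT_negative arrays replicate 2 was the highest for Ccl4 and Xcl1 and the lowest for Cxcl2, Ccl6 and Ccl9. Replicate 1 of the ChAT_negative group was the highest for Ccl3, Ccl5, Ccl6, Ccl9, Cxcl9 and Cxcl10. The replicate 2 arrays were also the lowest of each group for the basophil and mast cell sum (6.11 and 14.1). The same held for the monocyte and macrophage sum (5.93 and 6.76) and the platelet marker sum (2.85 and 7.14). Replicate 2 was the highest of each group for the NK cell sum (238 and 288) and the T cell sum (27.7 and 23.4). The innate-like and type 17 sum (31.7 and 15.2) and the red cell sum (20.6 and 34.1) were also highest there. The part of these cells in the array-to-array differences was not tested.

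**Figure D4:**
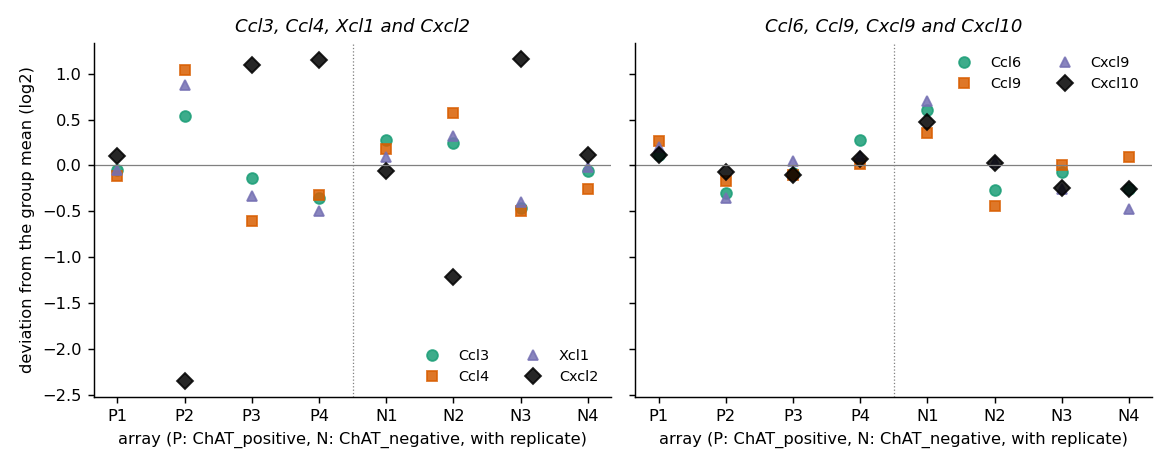
Deviation of each array from its group mean (log2) for 8 ligands, with ChAT_positive arrays on the left and ChAT_negative arrays on the right of the dotted line in each panel. In replicate 2 of both groups Cxcl2 lies far below 0 while Ccl3, Ccl4 and Xcl1 lie above it.

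Of 29 other chemokine ligands listed, 26 were on the array, 13 passed the filter and 10 were not above background on any array, among them Cxcl12 and Cxcl13. Of the 13, none was higher and 1 was lower in ChAT_positive cells by limma (unadjusted p under 0.05 for 2 higher and 1 lower), with a median difference of 0.18. The one called was Ppbp, a platelet chemokine and Cxcr2 ligand. It measured -1.66, -3.00, -1.01 and -0.90 in ChAT_positive and 1.82, 0.12, 0.89 and 0.45 in ChAT_negative arrays, with no overlap and a difference of -2.46 (SE 0.51, limma adjusted p = 0.029, 0.0043 to 0.12 over the alternatives). It was not called without ChAT_positive replicate 1 (adjusted p = 0.062) or 3 (adjusted p = 0.062) or ChAT_negative replicate 3 (adjusted p = 0.061) or 4 (adjusted p = 0.069). Of 7 tested platelet markers, a list that holds Ppbp itself, 2 were lower, with summed levels of 2.85 to 7.65 against 7.14 to 20.3, and their part in this value was not tested. Ccl24, an eosinophil attractant, differed by 1.28 (SE 0.34, limma adjusted p = 0.063). The Cxcr2 ligand Cxcl1, named after its values were seen, differed by 0.62 (SE 0.42, limma adjusted p = 0.40). Without ChAT_positive replicate 2, which was the lowest array for Cxcl1, Ccl2 and Cxcl1 were called higher, and without ChAT_negative replicate 2 Ccl24 was.

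**Figure D5:**
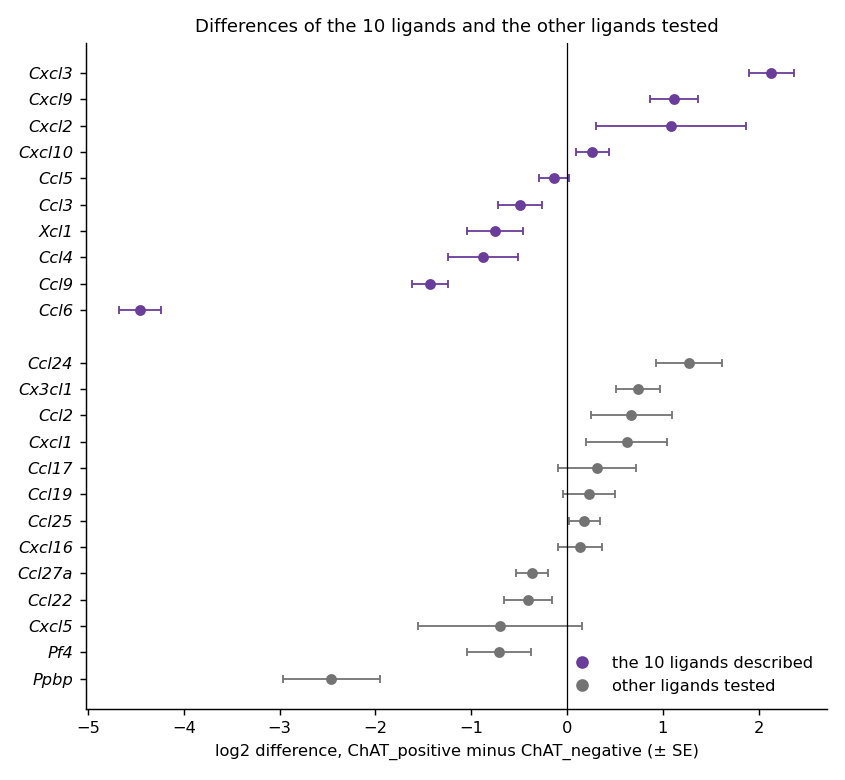
Log2 difference, ChAT_positive minus ChAT_negative, with its SE for the 10 ligands (purple) and the 13 other ligands that passed the filter (grey). Ccl6 at -4.46 and Cxcl3 at 2.13 lie farthest from 0 among the 10, and Ppbp at -2.46 among the others.

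Of 8 receptors for these ligands, 7 were tested, and 1 was higher and 2 lower in ChAT_positive cells, with a median difference of -0.60. The decoy receptor Ackr2, which clears CC chemokines, was higher by 0.97 (SE 0.20, limma adjusted p = 0.030, 0.010 to 0.15 over the alternatives). Cxcr2, the receptor of Cxcl2 and Cxcl3, was lower by 0.96 (SE 0.20, limma adjusted p = 0.030, 0.0098 to 0.16 over the alternatives). Ackr1, a scavenging receptor of red cells and venules, was lower by 1.05 (SE 0.25, limma adjusted p = 0.046, 0.0040 to 0.14 over the alternatives). Cxcr2 was also on the neutrophil list above. Ackr2 was lost without replicate 1, 3 or 4 of ChAT_positive or replicate 2, 3 or 4 of ChAT_negative, which left 0 receptors higher in each. The number lower was 0 without replicate 1 or 4 of ChAT_positive or replicate 2, 3 or 4 of ChAT_negative, and 1 without ChAT_positive replicate 3, where Ackr1 was lost. Ackr1 was also lost without ChAT_positive replicate 2. Of receptors named after their values were seen, Ccr1 differed by -0.86 (limma adjusted p = 0.15) and Cxcr3, the receptor of Cxcl9 and Cxcl10, by 0.53 (limma adjusted p = 0.11).

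Of 20 NF-kB pathway genes tested, 1 was higher and none lower in ChAT_positive cells (unadjusted p under 0.05 for 3 higher and 0 lower), with a median difference of -0.0087. The gene called was Rel, which encodes the NF-kB subunit c-Rel and differed by 0.58 (SE 0.12, limma adjusted p = 0.029, 0.016 to 0.15 over the alternatives). Bcl3, a nuclear cofactor of NF-kB, differed by 0.32 (SE 0.13, limma adjusted p = 0.18). Rel was lost, leaving 0, without replicate 1, 3 or 4 of ChAT_positive or replicate 2, 3 or 4 of ChAT_negative, and when arrays were centred on their medians.

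Of 15 interferon gamma pathway genes tested, 2 were higher and none lower (unadjusted p under 0.05 for 6 higher and 0 lower), with a median difference of 0.19. Ifngr2, a chain of the interferon gamma receptor, was higher by 1.07 (SE 0.18, limma adjusted p = 0.016, 0.0049 to 0.11 over the alternatives). Ifng itself, named after its values were seen, measured 5.68 ± 0.27 against 5.88 ± 0.22 (SD, n = 4 each) and differed by -0.20 (limma adjusted p = 0.51). The number higher was 1 (Ifngr2) without replicate 1, 3 or 4 of ChAT_positive or replicate 1, 2 or 3 of ChAT_negative, and 0 without ChAT_negative replicate 4.

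Genes whose values followed those of Ccl6 and Cxcl3 most closely over the 8 arrays were named by Pearson r as a description, since the difference between the groups enters r. For Ccl6 they were Slc9b1 (r = 0.985), Sh3bgr (0.982), Ajuba (0.981), Cdh1 (0.980) and Klk1b26 (0.979). All 5 had lower means in ChAT_positive cells, from -0.97 for Slc9b1 to -5.26 for Klk1b26. Klk1b26 was not well above background on any ChAT_positive array and passed the filter only through ChAT_negative arrays. Its difference is therefore only bounded, at 15.3-fold or more. Cdh1 was well above background on 1 ChAT_positive array. For Cxcl3 they were Phc3 (0.983), Gbp10 (0.982), Kcnmb4 (0.979), Cysltr1 (0.978) and Utp15 (0.969), all with higher means, from 0.38 for Phc3 to 2.58 for Cysltr1.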

How the data were processed

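Per the file headers, the deposited files are the output of Agilent Feature Extraction 11.5.1.1. They give linear intensities per spot, of which the processed intensity is background-subtracted and unscaled between arrays. Amplification started from 100 ng of total RNA, per the labels' protocols. A deposited table of log2 values covers 31942 probes. Its values were log2 processed intensity less the array's 75th percentile, apart from a median offset per array of up to 0.0065 in size. The SD of that offset over probes was up to 0.0026. Scale and direction are therefore known, and genes are not centred. The column medians of the deposited table lie between -0.72 and -0.63.

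Spots of a probe were averaged, without control spots. In all, 1344 spot values were flagged. They were left out except where all spots of a probe were flagged, and 51 such probe values were kept. Probes (55681) were named through RefSeq accessions in a table of GRCm38.p6 (26762 named, 28919 not). Log2 intensity minus the array's 75th percentile was fitted for probes well above background on 4 or more of 8 arrays (32086 probes), with the brightest probe per gene, by limma 3.58.1 in R 4.3.3 (lmFit, eBayes, two-sided, Benjamini-Hochberg over 13607 genes, threshold 0.05). The fit was also run on simulated data with independent noise and no slide effect. Those settings differ from these arrays, so nothing about the calls is read from that run. No spot was saturated, and the number of arrays limits the precision. A probe counted as well above background where most of its spots, or as many as not, did.

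The members and lists were chosen with earlier results of these data known. Named genes are all members, called genes of each list by size of difference (at least 2 per list, else the lowest unadjusted p), Chat, the first markers of each cell type list and the 5 genes closest to Ccl6 and to Cxcl3. Other marker genes and those said to be named after their values were seen fall outside that rule. Some genes covered by it are not reported here. Alternatives changed scaling, background correction, filter, probe choice, variance model, array weights and block, used the deposited table, or left out arrays. Normexp used median spot signals. Promoter windows came from a RefSeq table of GRCm38.p6, and positions on the array's own, earlier annotation were not used.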

Additional observations from a re-analysis of the deposited data

Results flagged for a closer look

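In groups of 4 arrays, a value was singled out where its gap to the nearest other array took up more of the group's range than Dixon's critical value at 95%. This held for 7 of the 126 groups checked and 1 of the 22 ligand groups. That is close to the 1 in 20 that chance gives, so nothing is read from the number singled out. Among the ligands, Ccl5 in ChAT_positive replicate 4 (4.72, against 5.15 to 5.20 in the others) was singled out. Cxcl2 in the replicate 2 arrays (-4.62 and -4.57) was not.

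The other 6 values were of genes outside the 10 ligands, and all of them lay in replicate 2 arrays. The cause was not tested. In ChAT_positive replicate 2 these were Prss34, a basophil protease (-5.34, with the others from -1.77 to -1.31), and Phc3 (1.81, with the others at 1.75). In ChAT_negative replicate 2 they were Fcer1a, a chain of the IgE receptor (-1.32), the neutrophil transcripts S100a8 (2.14) and Ngp (-0.62), and the myeloid lysozyme Lyz2 (-1.90).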

How the results depend on the processing

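The differences of Ccl3, Ccl4, Xcl1, Ccl6, Ccl9, Cxcl2, Cxcl3, Cxcl9 and Cxcl10 kept their sign under all 15 other settings run on them, and the difference of Ccl5 turned to 0.085 with median scaling. Cxcl9 was not among the genes called without the low-signal filter, in the fits without single arrays named above, or without both arrays numbered 2 or both numbered 3. Ccl9 was not without both arrays numbered 3. As above, ligand calls are no test, and neither their loss nor their presence is read as a result. The number of ligands with separate groups was 4 to 8 with 1 array left out. The share over all genes is not given for these settings, so nothing is read from that number.

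Deviations from the group means of arrays with the same number correlated at 0.539, 0.661, 0.519 and 0.0323 for numbers 1 to 4. The labels do not say what a number shares and the last value is near 0, so the numbers were not used as pairs. A fit with the replicate block called 1002 genes higher and 1344 lower. Among the ligands it called 3 higher and 4 lower, which adds Cxcl2, Ccl4 and Xcl1 to the 4 called without it. Since the ligands were chosen from this contrast, nothing is read from these calls. With that replicate block the other ligands called were 2 higher and 2 lower, the receptors 2 higher, and the interferon gamma pathway genes 4 higher. ChAT_positive replicates 1, 2 and 3 correlated best with their own number, and ChAT_positive replicate 4 with ChAT_negative replicate 3 (0.233), which is a hint from the data and not from the design.

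For all genes called, median scaling gave 212 higher and 119 lower, no low-signal filter 98 and 126, and array weights 577 higher. With 1 array left out the range was 81 to 310 higher and 78 to 439 lower. For other ligands, 1 was higher with quantile normalization, median scaling, normexp, a filter on all 8 arrays or a trended variance, 2 with array weights, and 0 were lower without the filter. With 1 array left out 0 to 2 were higher and 0 to 1 lower. For receptors, 0 were lower with quantile normalization or median scaling, and 0 higher and 0 lower without the filter. With 1 array left out 0 to 1 were higher and 0 to 2 lower. NF-kB pathway genes higher were 0 with median scaling or without the filter, and 0 to 1 with 1 array left out. Interferon gamma pathway genes higher were 4 with quantile normalization, 1 with median scaling, 1 without the filter, and 0 to 2 with 1 array left out. The causes were not tested.

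Both alternatives that left out 2 arrays were chosen after the data were seen. Without both arrays numbered 2, 198 genes were higher, 2 other ligands were higher, 0 receptors lower and 0 NF-kB pathway genes higher. In that setting 8 of the 10 ligands had separate groups, from which nothing is read without the share over all genes. Without both arrays numbered 3, 8 genes were higher and 8 lower, with 0 other ligands lower, 0 receptors higher, 0 receptors lower, 0 NF-kB pathway genes higher and 0 interferon gamma pathway genes higher.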
